A study of Homo sapiens with 17 samples.

Results

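The transcripts described here are those of 10 genes of the poly(A) tail shortening machinery, namely the CCR4-NOT genes CNOT1, CNOT2, CNOT3, CNOT6, CNOT7 and CNOT8, the PAN2-PAN3 genes PAN2 and PAN3, and PARN and TOB1. They were taken by gene symbol from a table of 18869 genes, and all 10 were found. No measured value entered this rule, but earlier results of these data were known when the members were chosen. PARN is a deadenylase of its own and TOB1 is an adaptor protein, so that the name of the group, deadenylase subunits, holds for 8 of the 10 genes only.

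The data come from Ribo-STAMP in HEK293T cells, an established line from human embryonic kidney, combined with RNA immunoprecipitation (IP) of nuclear and cytoplasmic poly(A) binding protein, PABPN and PABPC. RPS2-STAMP cells carried a fusion of APOBEC1, an enzyme that turns C into U in RNA, with RPS2, a protein of the small ribosomal subunit, and Control-STAMP cells carried APOBEC1 alone, both as lentivirally integrated constructs in stable lines induced with doxycycline at 50 ng/ml for 24 h. All cells were crosslinked with formaldehyde, and RNA depleted of ribosomal RNA was sequenced from the lysate (Input) and from either IP. There were 9 RPS2-STAMP samples, 3 in each fraction, and 8 Control-STAMP samples, of which 2 were from the PABPC IP and 3 from each other fraction. The study describes the lysate as cytoplasmic, whereas the sample labels name no fractionation. In the fusion line APOBEC1 edits cytidines of RNA near RPS2, so that its edits above the control report contact of an RNA with RPS2 and not protein output.

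Most messenger RNAs leave the nucleus with a long poly(A) tail coated by poly(A) binding proteins, and the tail is shortened in the cytoplasm before the message is decapped and degraded. In the textbook order PAN2-PAN3 trims long tails first, recruited by PAN3 through PABPC, and CCR4-NOT removes most of the remaining tail. CCR4-NOT is built on the scaffold CNOT1, to which CNOT2 and CNOT3 bind at one end and the nucleases bind near the middle. The messenger RNAs for these enzymes carry poly(A) tails themselves. Each can thus be read for the ribosome contact of the RNA recovered with either binding protein. The edits were made in the cells during the 24 h of induction. A value in an IP therefore need not report contact made while that protein was bound. The paper adds that the PABPN IP may also recover RNAs carrying both proteins on their tail.

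Values measured in an IP are given as values with PABPN or with PABPC. The measure taken for ribosome contact was the normalized EPKM, the edits in RPS2-STAMP relative to transcript length and sequencing depth, less those of the control condition. The measure of abundance was TPM, a read share scaled by gene length, averaged by the authors for each fraction. It adds exonic and intronic TPM, and the intronic part of each value is not known here. In total lysate the paper found intronic reads for many more genes with PABPN than with PABPC. TPM summed over listed genes to 854272 in the Input, 975719 with PABPN and 995724 with PABPC. Both measures are pooled, with 1 value per gene and fraction. No value has an SD or a p-value, and no difference could be set against a spread between replicates. Read and edit counts were not used here, and the depth behind each value is unknown. The members were set beside 9607 protein-coding genes with a TPM of 5 or more in each IP, called background genes, among which all 10 members fell. PAN2 passed this filter narrowly, at a TPM of 5.07 in the PABPC IP. An EPKM of 0 is given as listed at 0, because it can also stand for a difference removed by the subtraction. Among the 30 EPKM values of the members 3 were listed at 0, and among background genes 21.9% of values were 0 in the Input, 27.1% with PABPN and 17.4% with PABPC.

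Marker genes were read to check the cell line and the fractions. Of 6 genes typical of HEK293T cells, VIM had a TPM of 184 in the Input, KRT18 had 24.8, NEFL had 26.9 and NEFM had 9.00. KRT8 and PAX2 were low, with an Input TPM of 2.16 and 0.797. Among markers of other cell types, the blood marker PTPRC, the T cell marker CD3E, the endothelial marker PECAM1 and the hepatocyte marker ALB were not among the listed genes. The fibroblast marker COL1A1 and the smooth muscle marker ACTA2 had an Input TPM of 1.90 and 1.92. The nuclear non-coding RNAs MALAT1 and NEAT1 were far more abundant with PABPN, at a TPM of 208 and 55.8 with PABPN against 10.3 and 3.25 with PABPC. The histone genes H1-4 and H4C3, whose messages mostly end without a tail, had a TPM of 3090 and 3128 in the Input, 563 and 425 with PABPN, and 411 and 736 with PABPC. GAPDH was at 2463 in the Input, 1863 with PABPN and 4961 with PABPC. RPS2 reads can also come from the construct, and its TPM was 8171, 10493 and 27182 in the same order. EPKM was not limited to translated messages with tails. MALAT1 had an EPKM of 0.0880 in the Input, above 8 of the 10 members, 0.0214 with PABPN and 0.00451 with PABPC. H4C3 had 0.359 with PABPC, above all 10 members, and 0.219 with PABPN, and H1-4 had 0.187 with PABPC. Both histone genes were listed at 0 in the Input, and H1-4 also with PABPN. NEAT1 had 0.0128 in the Input and 0.00495 with PABPC, and was listed at 0 with PABPN.

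The 3 catalytic CCR4-NOT subunits among the members had high EPKM with PABPC. CNOT6 (ENSG00000113300), a nuclease of the exonuclease-endonuclease-phosphatase family, had an EPKM of 0.162 with PABPC and 0.0260 with PABPN, and was listed at 0 in the Input. The difference of 0.136 EPKM was the largest among the 10 members and lay above 93.1% of background genes. CNOT7 (ENSG00000198791), a nuclease of the DEDD family, had an EPKM of 0.175 in the Input, 0.156 with PABPC and 0.0879 with PABPN. For its close relative CNOT8 (ENSG00000155508) the EPKM was 0.198 with PABPC, 0.151 with PABPN and 0.0257 in the Input. Thus all 3 catalytic members were higher with PABPC than with PABPN, as were 56.4% of background genes. The difference was 6.23-fold for CNOT6, 1.77-fold for CNOT7 and 1.31-fold for CNOT8. Their Input values ran from the bottom of the background range to above 91.6% of it for CNOT7. CNOT6L, a paralog of CNOT6 outside the members, had 0.0576 with PABPC and 0.0465 with PABPN. High EPKM with PABPC was not limited to catalytic subunits, with 0.197 for the scaffold CNOT1.

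The core subunits differed from each other. CNOT1 (ENSG00000125107), the scaffold, had an EPKM of 0.197 with PABPC, 0.103 with PABPN and 0.0700 in the Input, a 1.92-fold difference between the IPs. CNOT2 (ENSG00000111596), which pairs with CNOT3 on the carboxy-terminal end of the scaffold, was listed at 0 with PABPC and had 0.0345 with PABPN and 0.0187 in the Input. CNOT3 (ENSG00000088038) showed the same order, at 0 with PABPC, 0.0614 with PABPN and 0.0140 in the Input. The pair that forms the NOT module had EPKM above 0 in the Input and with PABPN. Both genes were listed at 0 with PABPC, which is 2 of 10 members against 17.4% of background genes. They were detected there at a TPM of 14.4 for CNOT2 and 51.4 for CNOT3. CNOT4, a CCR4-NOT subunit outside the members, was also listed at 0 with PABPC.

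Translation starts at the first codon, and the bases around it are given for the 3 members with the highest EPKM with PABPC (CNOT8, CNOT1 and CNOT6) and for both members listed at 0 there (CNOT2 and CNOT3). Each line is the stretch from 12 bases before the start codon to 15 bases after it, from the canonical transcript of GENCODE release 44 on hg38, with the start codon in capitals.
CNOT8: ggtttcttcaggATGcctgcagcacttgtg
CNOT1: ccccaaccagcaATGaatcttgactcgctc
CNOT6: accccgagaggcATGcccaaagaaaaatac
CNOT2: ggacacgactctATGgtgaggactgatgga
CNOT3: agggcagggaagATGgcggacaagcgcaaa
The start codons lie at chr5:154863279-154863281 on the plus strand for CNOT8, chr16:58599335-58599337 on the minus strand for CNOT1, chr5:180529277-180529279 on the plus strand for CNOT6, chr12:70278227-70278229 on the plus strand for CNOT2 and chr19:54142979-54142981 on the plus strand for CNOT3. A purine 3 bases before the start codon was present in 9 of the 10 members and in 87.3% of the background genes, and CNOT2 was the member without it. A G directly after the start codon was present in 3 of 10 members, CNOT2, CNOT3 and PARN, and in 54.5% of background genes. These bases describe the transcripts, and whether they bear on the EPKM was not tested.

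PAN2 and PARN were below the background median EPKM in every fraction, TOB1 was above it in every fraction, and PAN3 was above it in the Input and with PABPC. PAN2 (ENSG00000135473), the nuclease of its complex, had an EPKM of 0.00396 in the Input, 0.00943 with PABPC and 0.0219 with PABPN. PAN3 (ENSG00000152520), the subunit that binds RNA and PABPC, had an EPKM of 0.110 in the Input, 0.0692 with PABPC and 0.0268 with PABPN. EPKM was 2.32-fold higher with PABPN for PAN2, or -0.71 on the scale of log2(EPKM + 0.01) for PABPC over PABPN, and 2.58-fold higher with PABPC for PAN3. Per TPM, EPKM was higher with PABPC for both subunits. PARN (ENSG00000140694), a nuclease known for trimming tails of non-coding RNAs, had an EPKM of 0.0284 with PABPC, 0.0140 with PABPN and 0.00879 in the Input. TOB1 (ENSG00000141232), an antiproliferative adaptor that binds CNOT7 or CNOT8 and PABPC, had 0.143 with PABPC, 0.0461 with PABPN and 0.0485 in the Input, a 3.10-fold difference between the IPs.

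**Figure D1:**
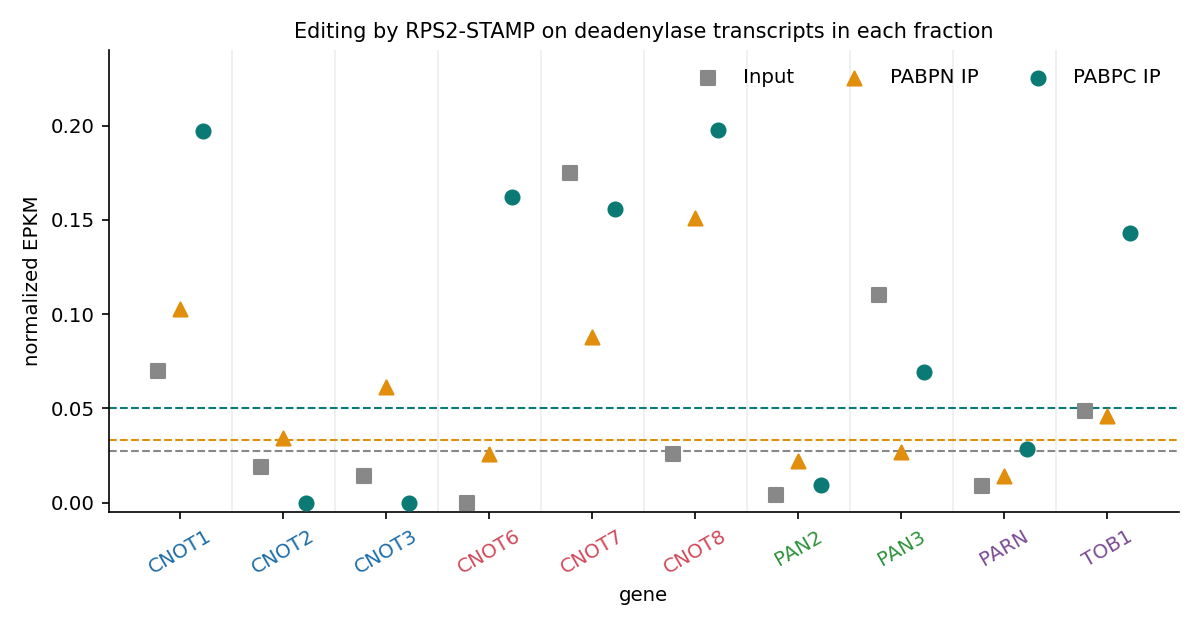
Normalized EPKM (edits relative to transcript length and sequencing depth, less the control) of each gene in the Input (squares), the PABPN IP (triangles) and the PABPC IP (circles), 1 pooled value each, with dashed lines at the medians of the 9607 background genes. Gene names are blue for core and red for catalytic CCR4-NOT subunits, green for PAN2-PAN3 and purple for the genes outside both complexes. CNOT1, CNOT6, CNOT7, CNOT8 and TOB1 lie at 0.143 or above with PABPC, and CNOT2 and CNOT3 are listed at 0 there.

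Over the members, EPKM was higher with PABPC than with PABPN for 7 of 10 genes, against 56.4% of background genes, and higher with PABPN for 3 of 10, against 37.4%. The median difference was 0.0448 EPKM over the members and 0.0108 over the background. By individual gene the differences ran from -0.0614 for CNOT3 to 0.136 for CNOT6, between the positions 12.4% and 93.1% of the way up the background by rank. On the scale of log2(EPKM + 0.01), CNOT6, PAN3 and TOB1 were at least 2-fold higher with PABPC, which is 3 of 10 members against 36.3% of background genes. CNOT2 and CNOT3, 2 of 10 members, were at least 2-fold higher with PABPN, against 21.1% of the background. A pseudocount of 0.1 gave 1 and 0 members, against 9.00% and 3.71% of the background. The shares of the members lay near those of the background in both directions.

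The Input gave a further reference. EPKM was above 0 in all 3 fractions for 7 of 10 members, against 50.5% of background genes, and the exceptions were CNOT2, CNOT3 and CNOT6. The PABPC IP held the highest of the 3 values for 5 of 10 members (CNOT1, CNOT6, CNOT8, PARN and TOB1), against 42.6% of the background. The PABPN IP held it for 3 of 10 (CNOT2, CNOT3 and PAN2), against 28.7%, and the Input for 2 of 10 (CNOT7 and PAN3), against 26.6%. Values of a gene in different fractions were only loosely related in general, and the Spearman rho across 9601 background genes was 0.19 between the IPs. Across the 10 members the same rho was 0.52, a description over genes that are not independent replicates.

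In abundance, the members fell on both sides of the median background gene. All 10 members had a higher TPM in both IPs than in the Input, as did 92.5% of background genes. The Input also held 7SK and RN7SL1 at a TPM of 174271 and 128398. The PABPN IP held MT-CO1 at 95994, MT-CO3 at 52268 and 7SK at 28629, and the PABPC IP held RPS2 at 27182. Ratios of TPM + 1 were taken on the log2 scale relative to their median over background genes, which was 1.07 for the PABPN IP over the Input, 0.92 for the PABPC IP over the Input and -0.18 for the PABPC IP over the PABPN IP. A centred ratio past 0.5 in either direction was counted.

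In the PABPN IP over the Input, 4 of 10 members were above this threshold, against 23.0% of the background. These were PAN2 with a centred ratio of 2.26, TOB1 with 0.93, PAN3 with 0.85 and CNOT1 with 0.60. CNOT3 at -0.73 and PARN at -0.59 were below it, which is 2 of 10 members against 19.7%. Without centring, 8 members were above and 0 below, against 83.6% and 0.583% of the background. PAN2 had a TPM of 4.15 in the Input and 50.9 with PABPN, and its ratio lay above 99.8% of background genes.

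In the PABPC IP over the Input, CNOT7 alone was above the threshold with a centred ratio of 0.59, which is 1 of 10 members against 9.64% of the background. CNOT6 and CNOT8 followed at 0.35 and 0.24, so that the catalytic members were the members with positive ratios. The background median of this ratio is 0.00 by centring. Of the other CCR4-NOT subunits, CNOT9 at 0.36 and CNOT11 at 0.14 were also positive. CNOT6L at -0.32, CNOT10 at -0.56 and CNOT4 at -0.80 were negative. CNOT1 at -0.65 and PAN2 at -0.68 were below the threshold, 2 of 10 members against 17.0%. Without centring, the counts of 8 above and 0 below stood against 79.2% and 0.812%, and every member had a positive ratio, as did 95.4% of background genes. All directions against the Input are thus relative to the median background gene.

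**Figure D2:**
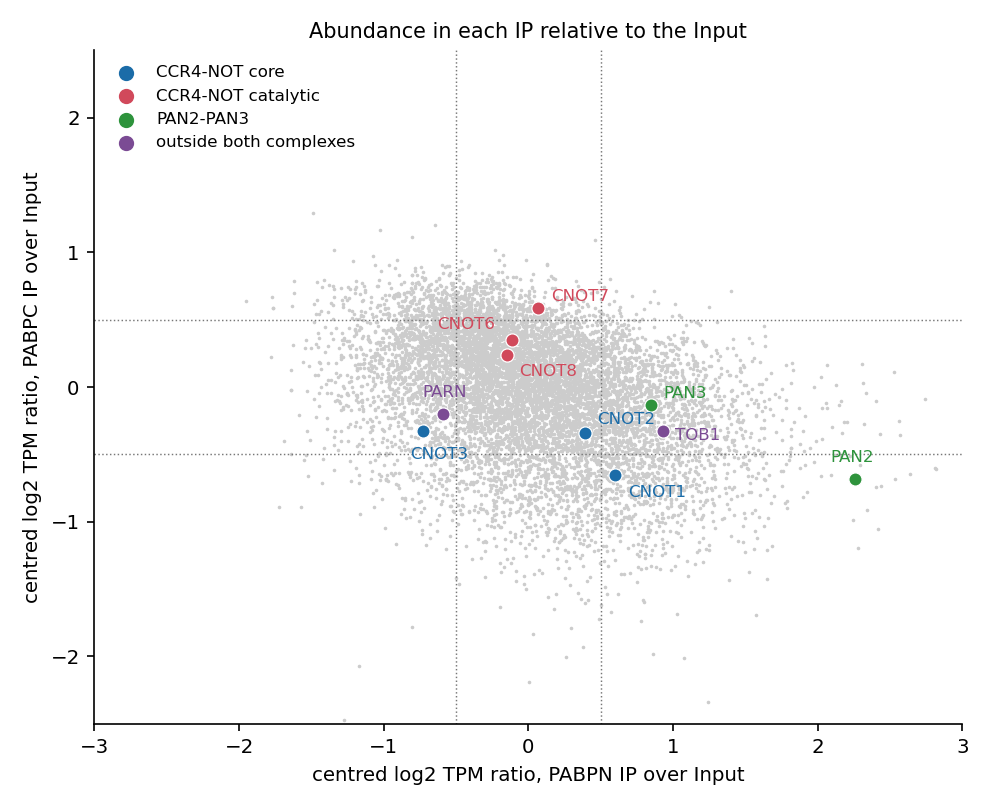
Centred log2 ratio of TPM + 1 in the PABPN IP over the Input (horizontal axis) and in the PABPC IP over the Input (vertical axis) for the 10 members, coloured by role, and for background genes in grey, of which 40 lie outside the axes. Dotted lines mark 0.5 in either direction. PAN2 stands at 2.26 on the horizontal axis, and CNOT6, CNOT7 and CNOT8 are the members above 0 on the vertical axis.

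Set directly against each other, the IPs gave positive centred ratios for 5 members and negative ones for 5, and centring on the median sets the positive share of the background at 50.0%. CNOT7, CNOT6, CNOT3, CNOT8 and PARN had centred log2 TPM ratios of the PABPC IP over the PABPN IP between 0.42 and 0.55, and CNOT2, PAN3, CNOT1, TOB1 and PAN2 had ratios from -0.70 down to -2.91. CNOT6, barely, at 0.50 and CNOT7 at 0.55 were past the threshold toward PABPC, 2 of 10 members against 29.5%, and 5 of 10 were past it toward PABPN, against 30.7%. Each member kept its sign without centring, where 42.4% of background genes were positive. The positive ratios of the members were then 0.24 to 0.36, and 0 members passed 0.5, against 22.4% of the background, and 5 were below -0.5, against 36.9%. The TPM of PAN2 was 50.9 with PABPN and 5.07 with PABPC, a 10.0-fold difference and a ratio that 0.156% of background genes went below. The TPM of CNOT1 was 277 with PABPN, 104 with PABPC and 86.1 in the Input, and that of TOB1 was 142, 52.5 and 34.6 in the same order. The catalytic members leaned the other way. Their TPM with PABPC and with PABPN was 149 and 119 for CNOT6, 107 and 83.0 for CNOT7, and 59.4 and 50.3 for CNOT8. CNOT6L, the paralog of CNOT6 outside the members, had a centred ratio of -0.70.

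Partition between the IPs moved with the length of the coding sequence among background genes. Across 9601 background genes with a canonical transcript in GENCODE release 44, the Spearman rho between coding length and the centred ratio was -0.62, and the median ratio was 0.86 in the decile of genes with the shortest coding sequences and -1.18 in the decile with the longest. Across the 10 members rho was -0.49. For the length of the 3' UTR it was 0.55 over the members and -0.30 over the background, and for the length of the gene 0.25 and -0.31. For the number of exons it was -0.35 and -0.37. Whether the values over 10 members differ from those of the background was not tested. CNOT7 and CNOT8, with 858 and 879 nucleotides of coding sequence, had ratios of 0.55 and 0.42 beside a median of 0.48 for their decile. CNOT1, with 7131 nucleotides and 49 exons, had -1.22 beside a median of -1.18. The decile of CNOT1 runs from 3201 to 16791 nucleotides, and CNOT1 is longer than 99.0% of background genes in coding sequence, so that its median stands for shorter genes.

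Other members lay away from the median of their decile. TOB1 has a coding sequence of 1038 nucleotides, where the median ratio was 0.32, and its own ratio was -1.23. PAN2, with 3597 nucleotides, had -2.91 beside -1.18. CNOT3 and PARN, with 2262 and 1920 nucleotides, had 0.43 and 0.42 beside -0.32. CNOT6 and CNOT2 are nearly equal in coding length, at 1674 and 1623 nucleotides in a decile with a median of -0.17, yet had 0.50 and -0.70. PAN3, with 2664 nucleotides, had -0.94 beside -0.61. The part of length in any of these ratios was not tested. The EPKM difference between the IPs was less tied to coding length, with a rho of -0.08 over background genes and -0.25 over the members.

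**Figure D3:**
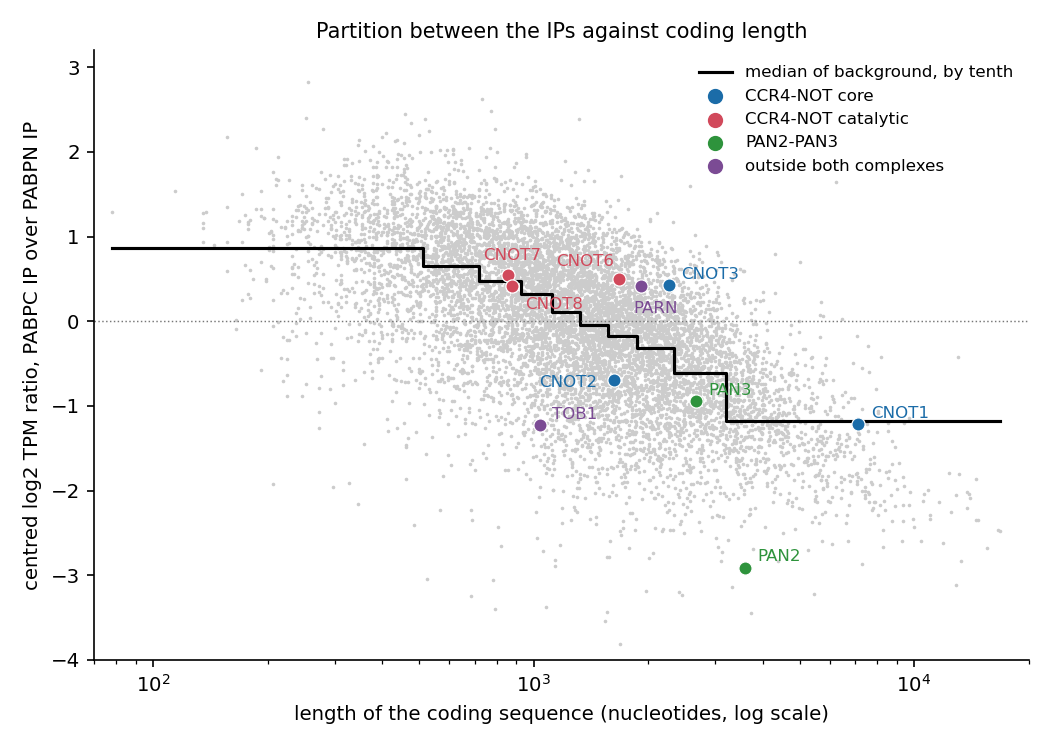
Centred log2 TPM ratio of the PABPC IP over the PABPN IP (vertical axis) against the length of the coding sequence in nucleotides (horizontal axis, log scale) for the 10 members, coloured by role, and 9601 background genes in grey. The black line is the median of background genes in each decile of coding length. CNOT7, CNOT8 and CNOT1 lie near the line, TOB1 and PAN2 far below it, and CNOT6, CNOT3 and PARN above it.

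EPKM is scaled to the reads of a library and is not divided by the abundance of the transcript, so it was also set against TPM in the same fraction. EPKM per TPM was higher with PABPC for 8 of 10 members, against 59.5% of background genes, and the exceptions were CNOT2 and CNOT3. PAN2 changed sides under this measure, with an EPKM per 1000 TPM of 1.86 with PABPC and 0.430 with PABPN. With genes at 0 kept, as (EPKM + 0.01) over (TPM + 1), the median log2 difference was 1.19 over the 10 members and 0.67 over the background. TOB1 had the largest difference among the 8 members above 0 in both IPs, with 2.72 EPKM per 1000 TPM with PABPC and 0.326 with PABPN. CNOT1 had 1.90 and 0.370. CNOT8 had nearly equal values of 3.33 and 2.99, a log2 difference of 0.15. In a ratio of this kind a low TPM in 1 fraction raises the value. PAN2, CNOT1, TOB1 and PAN3 were the members with the lowest PABPC IP to PABPN IP ratio of TPM. CNOT6, whose TPM ratio was positive, had 1.09 and 0.218 EPKM per 1000 TPM. Its log2 difference was 2.32, above that of PAN2 at 2.11. The part of TPM in these differences was not tested.

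APOBEC1 acts on cytidines, and the members differ in the share of cytidine in their coding sequence. Cytidine made up 17.5% of the CNOT7 coding sequence, a share that 4.50% of background genes went below, and 18.7% of that of CNOT8. CNOT3 was at the other end with 33.2%, above 89.6% of the background, and the background median was 25.3%. In all, 8 of 10 members had a cytidine share under that median, the exceptions being CNOT3 and PAN2. The rho between cytidine share and PABPC IP EPKM was -0.55 over the 10 members and 0.10 over the background. The share leaves out the untranslated regions, and whether it bears on the EPKM was not tested.

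The annotation gives further features that bear on counting. Genes overlapping the member on either strand covered 22.6% of the span of TOB1, by TOB1-AS1, and at most 9.9% of the span of each of the other members. For PAN2, at chr12:56316223-56334053 on the minus strand, this was CNPY2-AS1 over 9.9% of the span and 15.7% of the exonic bases. TOB1 lies at chr17:50862223-50867978 on the minus strand. For CNOT1, at chr16:58519951-58629885 on the minus strand, the overlapping genes are SETD6, small nucleolar RNA genes of the SNORA46 and SNORA50A type, ENSG00000260865 and ENSG00000276259, and together 16.1% of its exonic bases lie within the span of another gene on either strand. The largest exonic share of this kind was 29.9% for CNOT7, and it was 13.2% for CNOT3, 5.8% for CNOT8 and 0.0% for the other 5 members. The authors had removed regions of overlapping genes before counting TPM. CNOT7 has processed copies named CNOT7P1 and CNOT7P2 in the annotation, so reads of the gene and its copies could be split or shared. A poly(A) signal, AATAAA or ATTAAA, was present in the last 40 bases of the canonical transcript, read on its own strand, for 10 of 10 members and for 80.4% of background genes, and 7 of the 10 had AATAAA, against 65.1% of the background.

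By a distance over the 6 values of a gene (EPKM and TPM in 3 fractions, on the log2 scale, each divided by its SD over background genes), the genes nearest to CNOT1 were FAM120A at 0.483, MBD3 at 0.616 and IPO5 at 0.662. FAM120A, which encodes an RNA-binding protein, had an EPKM of 0.200 with PABPC and 0.106 with PABPN, with a TPM of 114 and 247. No other member was among them. The nearest member was TOB1 at 1.47, and the closest pair of members was CNOT7 and TOB1 at 1.45. Among subunits of the same complex the distance was 1.69 for CNOT2 and CNOT3, 2.95 for PAN2 and PAN3, and 1.72 to 4.80 between CNOT1 and the other 5 CCR4-NOT members, nearest for CNOT7 and farthest for CNOT2. It was 1.79 for the paralogs CNOT7 and CNOT8.

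Genes acting with the deadenylases were read from lists, using those that passed the same TPM filter, which left out PNLDC1, ZFP36 and SAMD4A. PAPOLB was not among the listed genes. Among background genes, 56.4% were higher in EPKM with PABPC and 37.4% with PABPN. Of the 5 other CCR4-NOT subunits, 4 were higher in EPKM with PABPC and 1 was lower, with a median difference of 0.0584. The extremes were CNOT11, a subunit of the amino-terminal module, at 0.265 with PABPC and 0.119 with PABPN, and the ubiquitin ligase CNOT4, listed at 0 with PABPC and at 0.0927 with PABPN. Of 5 other deadenylases, 4 were higher with PABPC and 1 was lower, with a median difference of 0.0419, from PDE12 at 0.0911 to ANGEL2 at -0.0198. PDE12 acts in mitochondria. It was among 3 genes of this list that were listed at 0 with PABPN, and the median EPKM of the list with PABPN was 0.

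Recruiters of deadenylases, such as the BTG and TOB adaptors, the ZFP36 and PUM proteins and the TNRC6 proteins of microRNA silencing, included more genes higher in EPKM with PABPN than with PABPC. Of 17 recruiters, 5 were higher with PABPC, 11 were higher with PABPN and 1 was equal, with a median difference of -0.0111 EPKM beside 0.0448 for the members and 0.0108 for the background. TOB2, the relative of TOB1, was at the upper end, with 0.175 with PABPC and 0.0167 with PABPN. ZFP36L1, which binds AU-rich elements, was at the lower end, with 0.0800 and 0.237. Set against TPM in the same fraction, the direction turned, and EPKM per TPM was higher with PABPC for 10 of 17, against 59.5% of the background, with a median log2 difference of 0.68 with genes at 0 kept, beside 0.67 for the background. In TPM, 12 of the 17 recruiters were past the threshold toward PABPN, against 30.7% of background genes, and 0 toward PABPC, against 29.5%, and the median ratio was -0.60.

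Downstream and opposing steps were read in the same way. Of 18 genes of decapping and 5-to-3 decay, 12 were higher with PABPC and 5 with PABPN, with a median difference of 0.0492 EPKM, from LSM1 at 0.204 to LSM2 at -0.0313. All 5 genes of poly(A) tail extension that were used had higher EPKM with PABPC, against 56.4% of the background, with a median difference of 0.0254 and a range from 0.00889 for PAPOLG to 0.0797 for TENT4A. Their median centred TPM ratio between the IPs was -0.83, toward PABPN, against 0.16 for the decapping genes and -0.14 for the members. The lists overlap in range, and no difference between them was tested.

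**Figure D4:**
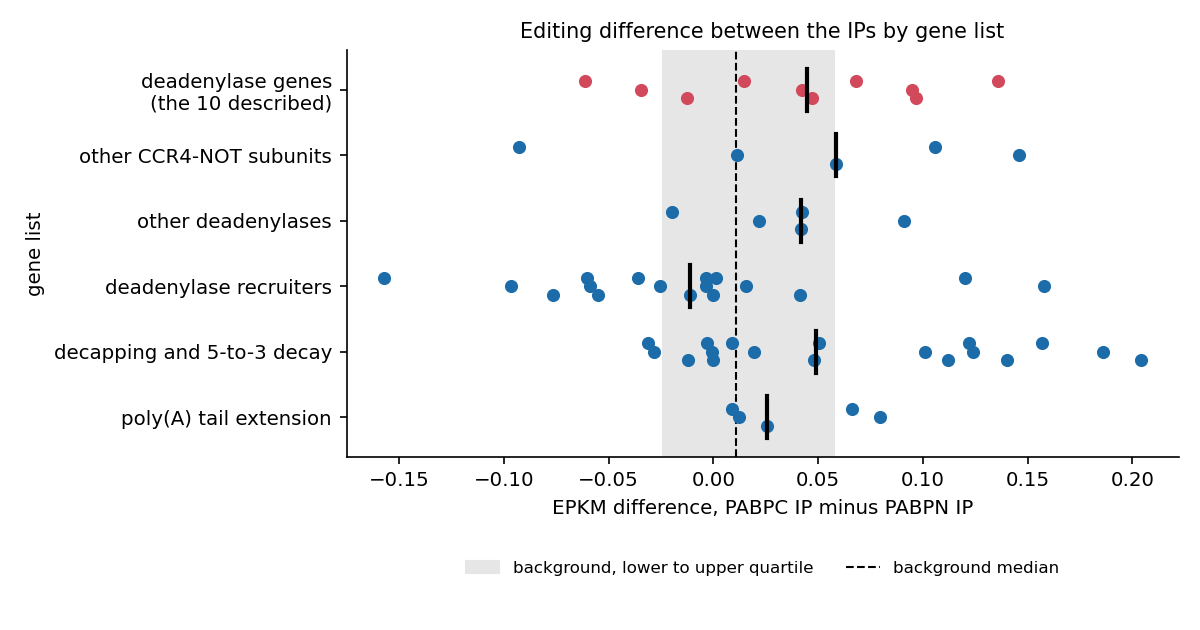
Difference in EPKM, PABPC IP minus PABPN IP, for each gene that passed the TPM filter, by list, with the list's median as a black bar. The grey band runs from the lower to the upper quartile of the 9607 background genes (-0.0240 to 0.0578) and the dashed line is their median of 0.0108. The recruiters are the list with a median below 0, at -0.0111.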

How the data were processed

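RNA from Input, PABPN IP and PABPC IP of RPS2-STAMP and Control-STAMP cells was sequenced by the authors, aligned with STAR to hg38 and counted with featureCounts 2.0.2, per the labels and the paper's methods. The deposited normalized EPKM is a signal made by the authors from C-to-U edits above a confidence score, with the control condition subtracted, and how replicates were combined is not given in the sources used here. The deposited TPM is the authors' average per fraction, adding exonic and intronic TPM from an annotation without overlapping regions and readthrough transcripts, and which samples entered each average is not given in the sources used here. The paper gives the reads per library, but the deposited values used here hold no counts, so the depth behind each gene's value is unknown.

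The members were selected by symbol, and the members and gene lists were chosen with earlier results of these data known. Background genes were protein-coding genes with a TPM of 5 or more in each IP. Differences, log2(EPKM + 0.01), log2(TPM + 1) ratios centred on the background median, and EPKM per TPM were computed, with thresholds of 2-fold for EPKM and 0.5 for centred ratios. No statistical test was run. Named are all members, all marker and reference genes, and the genes with the highest and lowest EPKM difference of each pathway list. The 3 background genes nearest to CNOT1 are also named. 7SK, RN7SL1, MT-CO1, MT-CO3, CNOT6L, CNOT9, CNOT10 and the TNRC6 genes were chosen after their values were seen. GENCODE release 44 on hg38 gave positions, lengths and sequences, whereas the authors counted with an older release on the same build. The code for the calls was checked on simulated data. Alternatives changed filter, summary, members, pseudocount, threshold and centring. Tables were handled with pandas 2.3.3 and NumPy 2.4.6 under Python 3.11.15, with SciPy 1.17.1 for intervals and matplotlib 3.10.9 for plots. Positions of edits and the study's other experiments were not analysed here.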

Additional observations from a re-analysis of the deposited data

How the results depend on the processing

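No paired analysis was possible because all values are pooled over replicates, and for the same reason leaving out each replicate was not run. Of 62 alternatives over 21 results, 46 kept the value within the exact binomial interval of the median over genes, or the count within a factor of 1.5. With 10 genes these intervals are wide, from -0.0345 to 0.0966 for the EPKM difference between the IPs and from -1.23 to 0.50 for the centred TPM ratio between them, so staying inside says little. The TPM ratio between the IPs, for example, was -0.64 with the other CCR4-NOT subunits added, in place of -0.14, and stayed inside. The looser TPM filters used the same members, so those alternatives could only be kept. Alternatives for the lists, and those with other members for the TPM medians, were chosen after seeing the data.

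The median EPKM difference between the IPs was 0.0448 to 0.0473 under the alternatives run on the EPKM scale and the mean was 0.0391. The median was 0.72 on the scale of log2(EPKM + 0.01) and 0.33 with a pseudocount of 0.1. With the other CCR4-NOT subunits added, 11 genes in place of 7 were higher in the PABPC IP, since more genes were counted. For EPKM per TPM, the median log2 difference was 2.22 over the 8 members above 0 in both IPs, which leaves out CNOT2 and CNOT3, and 1.19 with genes at 0 kept. With a pseudocount of 0.1, members at least 2-fold higher numbered 1 with PABPC and 0 with PABPN.

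Without centring, the median TPM ratio to the Input was 1.30 for the PABPN IP, in place of 0.23, and 0.65 for the PABPC IP, in place of -0.27, which changed sign because the background median of 0.92 was kept in it. Members above the threshold then numbered 8 in each IP and members below it 0, and for the PABPC IP over the PABPN IP 0 were above. With a threshold of 1, 1 member was above and 0 below in the PABPN IP over the Input, against 7.44% and 4.21% of the background, 0 above and 0 below in the PABPC IP over the Input, against 0.0729% and 3.34%, and 0 above and 3 below between the IPs, against 11.9% and 16.0%. The TPM filter did not change the members used, but over all 13473 listed protein-coding genes the share higher in the PABPC IP was 49.9% in place of 56.4%.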

Other observations

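Paralogs of the members, chosen after their values were seen, were compared side by side. TOB2 was near TOB1 in TPM, with a centred log2 TPM ratio of the PABPC IP over the PABPN IP of -1.03 beside -1.23, while its EPKM was 0.175 beside 0.143 with PABPC, 0.0167 beside 0.0461 with PABPN and 0 beside 0.0485 in the Input. CNOT6L, the paralog of CNOT6, had a TPM ratio of -0.70 beside 0.50. Its EPKM was 0.0576 beside 0.162 with PABPC, 0.0465 beside 0.0260 with PABPN and 0.0179 beside 0 in the Input. Both genes have almost the same coding length, 1668 and 1674 nucleotides.

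All 3 TNRC6 genes, also chosen after their values were seen, whose proteins bring CCR4-NOT and PAN2-PAN3 to microRNA targets, had a lower TPM in the PABPC IP than in the PABPN IP, with centred ratios of -1.94 for TNRC6A, -2.01 for TNRC6B and -1.46 for TNRC6C. Among background genes 57.6% had a lower TPM with PABPC, and 30.7% had a centred ratio below -0.5. All 3 TNRC6 genes fall in the decile with the longest coding sequences, from 3201 to 16791 nucleotides, where the median ratio was -1.18. The part of coding length in their ratios was not tested. TNRC6A was listed at 0 in EPKM with PABPC, and TNRC6C had 0.00185 there against 0.0987 with PABPN. TNRC6B had nearly equal values of 0.0542 and 0.0531. COL1A1 had an EPKM of 0.566 with PABPN at a TPM of 4.42, against 0.0295 with PABPC, and the first of these is higher than any EPKM of the 10 members.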
